A study of Sparassis latifolia with 15 samples.

Results

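The regions described here are 232 stretches of open chromatin of the cauliflower mushroom Sparassis latifolia that were listed as lost in primordia (P) relative to mycelium kept in the dark (D), and that lie on contigs numbered above 100 of the genome of strain SP-C. They were selected on contig number and on the authors' call of lower accessibility in P vs. D, which put them in the deposited list. They make up 232 of its 1912 lost peaks, and lost means called lower, not absent, in P. The 4 deposited lists hold 4187 peaks in all. ATAC-seq was performed on 2 libraries each of primordia labelled day 42, light-induced mycelium (L) labelled day 30 and dark mycelium labelled day 28, all of strain SP-C and grown in cultivation bags. Per the methods, L was dark mycelium exposed to white LED light for 1 h, and P formed after the dark mycelium was kept under a daily light and dark cycle. The label of day 30 for L and day 28 for D does not match 1 h of light on the same mycelium. Whether L was also older than D cannot be told here. Each list holds the peaks of a comparison that changed in a single direction, with a position and a score for every peak but no value per library. The spread between the 2 libraries of a group, and the depth behind a peak, can therefore not be given here. Per the supplement, which gives read counts per library, a lower share of reads mapped in each P library than in each D library. Whether this bears on the lost peaks was not tested. Since the list of lost peaks chose these regions, their counts, widths and scores are descriptions, and no test was run on them.

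In ATAC-seq, a transposase cuts and tags DNA where nucleosomes leave it exposed, so that a peak of reads marks accessible chromatin, such as promoters of genes in use. A primordium is the compact hyphal body from which a mushroom develops, and in many basidiomycetes it forms from mycelium only after light. Contigs are the stretches of a draft genome that could be assembled without a break, and a peak cannot be wider than the contig it lies on. In such assemblies short contigs commonly hold repeats and other sequence that could not be joined to the rest. What the contigs described here encode was not analysed, because no sequence or annotation of strain SP-C was used.

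Lost peaks prevailed among the listed peaks of contigs numbered above 100, called small contigs here, although contig lengths were not used. The lists of P vs. D held 232 lost and 55 gained peaks there, against 1680 lost and 1713 gained peaks on contigs numbered 100 or below. Lost peaks were thus 80.8% of the listed peaks above contig 100 and 49.5% of those at or below it. The 95% interval of the 80.8% was 75.8% to 85.2% (Clopper-Pearson, counting error only). It treats peaks as independent, although several can lie on the same contig, and it measures no spread between libraries. Of the lost peaks of P vs. D, 12.1% lay on contigs above 100, and these held 25.2% of the bases in the list, which is 390405 of 1549530 bp. Of the gained peaks, the share was 3.11% of the peaks and 2.18% of the bases. The lists of L vs. D placed 18 of 273 lost peaks (6.59%) and 8 of 234 gained peaks (3.42%) on these contigs.

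The peak numbers in the files give a measure of how many peaks were at hand. In both lists of P vs. D together, each number occurs once and the numbers rise strictly along the contigs, up to 11086. Numbers that appear in neither list are taken here as peaks that were not called different, which the sources do not state. Numbers beyond the highest listed cannot be seen. Any such peaks would lie at the high end of the contig numbers. The totals for all contigs and for contigs above 100 are thus lower limits, and the listed shares upper limits. Of the 11086 numbers up to the highest listed, 17.2% were lost and 15.9% were gained. On contigs above 100 there were 452 numbers, of which 232 (51.3%) were lost, 55 (12.2%) were gained and 165 (36.5%) were in neither list. On contigs 100 or below there were 10634 numbers, with 15.8% lost, 16.1% gained and 68.1% in neither. The same split was present among contigs 101 to 150, where 76 of 138 numbers (55.1%) were lost, and among contigs 151 to 478, where 156 of 314 (49.7%) were lost. The rule used this contrast, so these shares say only how the list is made up.

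**Figure D1:**
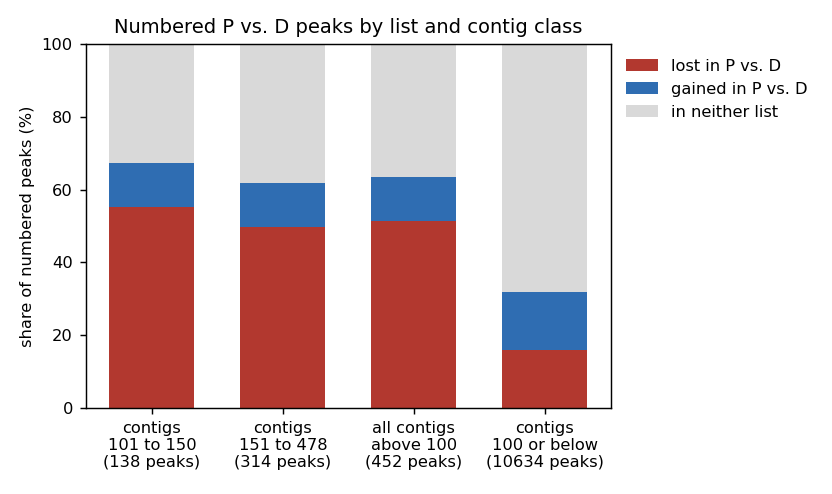
Share of the numbered peaks of P vs. D (y axis, %) that were listed as lost (red), as gained (blue) or in neither list (grey), by contig class (x axis, number of numbered peaks in brackets). Lost peaks were 51.3% of the numbers on contigs above 100 and 15.8% on contigs 100 or below.

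The higher share of lost peaks began near the bound of the rule. Among listed peaks of P vs. D, lost peaks were 81.7% on contigs 101 to 150, 69.8% on contigs 151 to 200, 82.6% on contigs 201 to 300, 91.0% on contigs 301 to 400 and 71.1% on contigs 401 to 478. The lower bounds of the exact 95% intervals of these 5 classes ran from 53.9% to 81.5%, with peaks again treated as independent. The intervals of contigs 151 to 200 (53.9% to 82.8%) and 401 to 478 (54.1% to 84.6%) overlapped that of contigs 76 to 100 (49.4% to 63.8%). Those of the other classes above contig 100 did not. On the larger contigs the lost share was 51.0% for contigs 1 to 25, 46.5% for contigs 26 to 50, 45.4% for contigs 51 to 75 and 56.7% for contigs 76 to 100. Contigs 301 to 400 had the most uneven lists, with 61 lost and 6 gained peaks. The median of the last position reached by any list on a contig was 22702 on contigs 101 to 150, 5383.5 on contigs 201 to 300 and 1272 on contigs 401 to 478, against 773208 on contigs 1 to 25. The median stretch seen was thus shorter in classes with higher contig numbers. Single contigs were seen much further, such as contig 138 to 82039, contig 113 to 61031, contig 477 to 78734 and contig 478 to 33860.

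**Figure D2:**
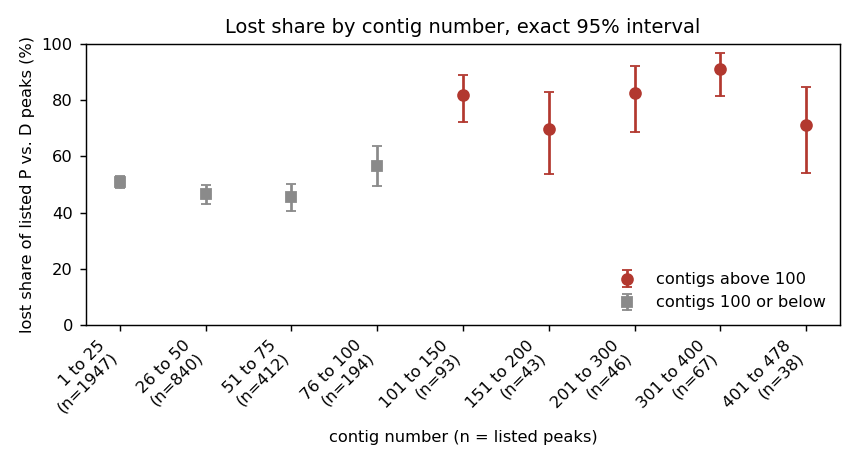
Lost share of the listed peaks of P vs. D (y axis, %) by class of contig number (x axis), with exact 95% intervals that cover counting error only. The 5 classes above contig 100 (circles) lie between 69.8% and 91.0%, and the 4 classes at or below it (squares) lie between 45.4% and 56.7%. Some intervals overlap across the bound.

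On either side of the bound, individual peaks did not follow this step. Contig 101 held a single lost peak, from 19147 to 19446, with a score of 2.92 and a width of 300 bp. It also held a gained peak from 50179 to 50978. Contig 100, just outside the rule, held 6 lost peaks with scores from 23.0 to 318 and widths from 222 to 2111 bp. The peaks just outside thus had higher scores than the member just inside.

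The 232 lost peaks were wider than the lost peaks elsewhere, and narrower in the median than the gained peaks of the larger contigs. Their width ranged from 199 to 8907 bp, with a median of 1022 bp (quartiles 520 and 2112 bp), against a median of 456 bp (quartiles 304 and 812 bp) for the lost peaks on contigs 100 or below. A width of at least 1000 bp was found for 117 of 232 peaks (50.4%), against 321 of 1680 (19.1%) on the larger contigs, and a width of at least 4000 bp for 31 (13.4%) against 6 (0.357%). The median width of gained peaks was 647 bp (quartiles 343 and 1181 bp) on contigs above 100 and 1341 bp (quartiles 694 and 2116 bp) on contigs 100 or below. The widest lost peaks measured 8907 bp (contig 128, 2193 to 11099), 8070 bp (contig 208, 707 to 8776) and 7303 bp (contig 219, 239 to 7541). The narrowest measured 199 bp (contig 332, 3105 to 3303), 204 bp (contig 133, 5038 to 5241) and 214 bp (contig 113, 32535 to 32748). All 3 widest peaks began closer to the start of their contig than the 3 narrowest.

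The score is the value the authors gave each peak, in a unit not stated in the sources used here, and it is used only to rank peaks. For 12 of the 15 lost peaks here that overlapped a lost peak of L vs. D, it was the same in both comparisons. It thus gives no size of a loss. Scores of the lost peaks on small contigs ran from 1.76 to 770, with a median of 30.7 (quartiles 8.98 and 80.4), against a median of 3.99 (quartiles 2.79 and 8.98) on contigs 100 or below. A score of at least 5 was reached by 191 of 232 peaks (82.3%), against 656 of 1680 (39.0%), and a score of at least 100 by 52 (22.4%) against 103 (6.13%). The highest scores in the whole list, up to 2556, nevertheless lay on the larger contigs. Gained peaks had a median score of 23.7 (quartiles 9.13 and 58.2) on contigs above 100 and of 31.2 (quartiles 11.9 and 59.5) on contigs 100 or below, so that scores near those of the 232 lost peaks were common among gained peaks. The score is not a fine measure, since 93 of the 232 peaks (40.1%) shared their exact score with another lost peak, as did 39.6% of the lost peaks on the larger contigs.

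Of the 10 lost peaks with the highest scores, 7 lay on contigs numbered above 300. The peak with the highest score, 770, spanned contig 366 from 71 to 2226. Contig 355 followed with 755 from 98 to 2635, contig 402 with 646 from 1 to 704, and contig 348 with 631 from 394 to 1602. The next scores were 576 (contig 195, 2987 to 5340), 539 (contig 405, 76 to 1331) and 472 (contig 360, 9 to 2564). The last 3 were 446 (contig 434, 172 to 1300), 413 (contig 102, 25187 to 27028) and 377 (contig 194, 20553 to 22216). These 10 peaks were 704 to 2556 bp wide, so that the highest scores did not belong to the widest peaks. The 5 lowest scores, 1.76 to 2.17, belonged to peaks of 214 to 342 bp on contigs 110, 119, 114, 279 and 113. Across the 232 peaks, width and score had a Spearman rho of 0.51, and across the lost peaks on contigs 100 or below a rho of 0.55. Peaks of a list come from the same pooled libraries and are not replicates, so these values describe the list.

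**Figure D3:**
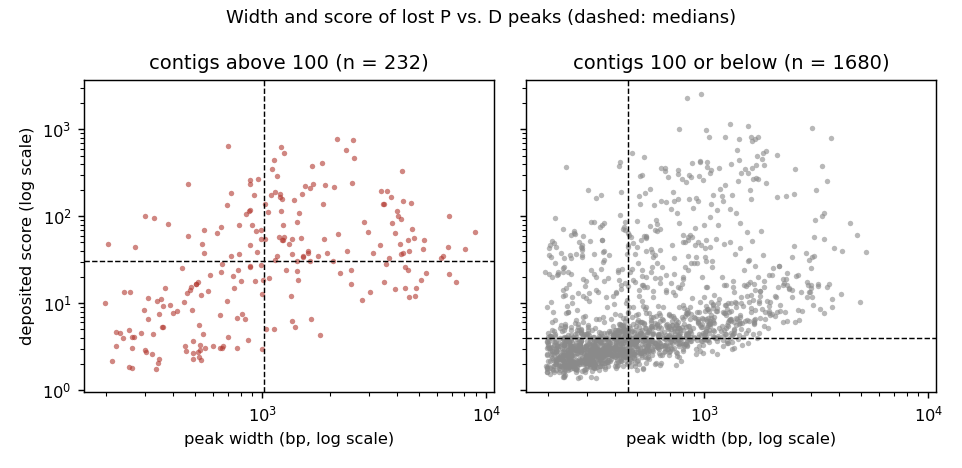
Width (x axis, bp, log scale) and deposited score (y axis, unit not given, log scale) of each lost peak of P vs. D on contigs above 100 (left, 232 peaks) and on contigs 100 or below (right, 1680 peaks). Dashed lines mark the medians, 1022 bp and 30.7 on the left and 456 bp and 3.99 on the right.

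Lost peaks were spread over many small contigs. Of the 378 contig numbers from 101 to 478, 146 held at least 1 lost peak, and 111 of these held exactly 1. The other 35 contigs held 121 lost peaks, and 8 contigs with 5 or more held 55. On contigs 100 or below, 98 contigs held a mean of 17.1 lost peaks, against 1.59 on the small contigs. Peaks that were the only lost peak on their contig had a median width of 1242 bp and a median score of 47.7. For those that shared a contig with another lost peak these were 789 bp and 16.6. Some contigs with a single lost peak also held gained peaks. The contigs with a single lost peak ran from contig 101 to contig 459.

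Many of the lost peaks began near the start of their contig. A start within 500 bp of the first base was found for 80 of 232 peaks (34.5%), against 4 of 1680 (0.238%) on contigs 100 or below and 17 of 55 gained peaks (30.9%) on contigs above 100. Closeness to the contig start was thus found for lost and gained peaks of these contigs alike. A start cannot lie further from the first base than its contig is long. The median last position seen was 1272 on contigs 401 to 478, against 773208 on contigs 1 to 25. How far this sets the difference from the larger contigs was not tested, and the distance to the contig end was not measured. Within 100 bp of the first base lay the start of 27 lost peaks (11.6%) and of 9 gained peaks (16.4%). Lost peaks that began within 500 bp had a median width of 1484 bp and a median score of 45.2, against 743 bp and 16.6 for the other 152. On the 111 contigs with a single lost peak, the peak took up a median of 75.5% of the sequence from the first base to its own end, and at least 90% in 38 of them (34.2%). On contig 360 it was 99.7%, and on contig 366 it was 96.9%. Contig 402, which held a pair of lost peaks, had the first from its first base to 704 and the other from 1079 to 1546 with a score of 59.3. The lengths of the contigs were not used here, so the share of a whole contig is at most these values.

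Where several lost peaks shared a small contig, they lay close together. The median gap between neighbours on a contig was 756 bp over 86 gaps, with a range of 38 to 58631 bp, against 9547 bp over 1582 gaps on contigs 100 or below. Gaps of up to 1000 bp made up 55.8% of the gaps on small contigs and 17.4% on the others. A gap cannot be longer than its contig, however, and the stretches seen were shorter on small contigs. The median last position was 5383.5 on contigs 201 to 300 and 1272 on contigs 401 to 478, against 773208 on contigs 1 to 25. How far this sets the shorter gaps was not tested. Runs of peaks with consecutive numbers were found on both kinds of contig. On contigs above 100, 116 of 232 lost peaks (50.0%) stood in a run of at least 2, against 995 of 1680 (59.2%) on contigs 100 or below, where the longest run held 26 peaks on contig 27. A run needs at least 2 lost peaks on the same contig, and 111 of the 232 peaks were the only lost peak on theirs. Of the 121 that shared a small contig with another lost peak, 116 stood in a run. The shares of 50.0% and 59.2% are therefore not a like comparison.

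The longest run on a small contig was that of contig 113, where all 12 numbers from 10666 to 10677 were lost. These peaks lay between 5993 and 61031, were 214 to 1404 bp wide and had scores from 2.17 to 266, and they covered 17.5% of that stretch. On contig 110, all 8 numbers from 10654 to 10661 were lost. The 8 peaks lay between 97 and 34387, were 335 to 5135 bp wide, had scores from 1.76 to 63.5 and covered 50.0% of the stretch. Neither contig held a gained peak of either comparison. Contig 142 had 6 of 6 consecutive numbers lost between 71 and 19979, with widths of 347 to 5388 bp and scores of 2.25 to 120.

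Contigs 137 and 157 each had 7 of 8 numbers listed as lost, and the remaining number was in neither list. On contig 137 the peaks lay between 176 and 18810 and covered 57.5% of the stretch, with scores of 2.78 to 23.8. On contig 157 they lay between 1496 and 15755 and covered 70.9%, with scores of 2.27 to 33.2. Of the 8 contigs with 5 or more lost peaks, the first and the last were the widest on 4 (contigs 128, 137, 142 and 157) and were not on the other 4 (contigs 102, 110, 113 and 477). These outermost peaks measured 8907 and 4780 bp on contig 128, 3501 and 4476 bp on contig 137, 5388 and 3036 bp on contig 142, and 4346 and 3670 bp on contig 157. The peaks between them were 1249 to 1494 bp wide on contig 128, 221 to 1356 bp on contig 137, 347 to 884 bp on contig 142 and 267 to 556 bp on contig 157. On contig 110 the widest peak, of 5135 bp, lay between others and the last peak measured 586 bp. This shape was noticed after the values were seen.

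**Figure D4:**
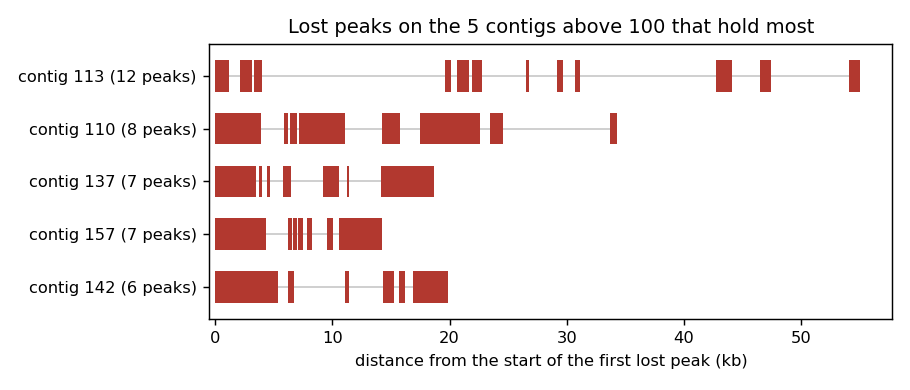
Lost peaks (red blocks, to scale) on the 5 contigs above 100 that held most of them, with the distance from the start of the first lost peak on the x axis (kb) and a row for each contig. Contig 113 held 12 peaks of 214 to 1404 bp. The outermost peaks were the widest on contigs 137, 142 and 157 and not on contigs 110 and 113.

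Lost and gained peaks seldom shared a small contig. Of the 178 contigs above 100 with a peak in P vs. D, 136 held lost peaks only, 32 held gained peaks only and 10 held both kinds. The 10 mixed contigs carried 18 of the 232 lost peaks (7.76%). The nearest gained peak was 1182 to 34111 bp away from these 18 peaks, with a median of 9735 bp. The closest pair lay on contig 362, with a lost peak from 1602 to 2150 (score 37.5) and a gained peak from 185 to 419 (score 8.91). On contig 156 a lost peak of 4531 bp from 129 to 4659 stood beside 3 gained peaks between 8845 and 13753. Most of these contigs held a single listed peak, which can have only a single direction.

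Contig 477 differed from the other small contigs with lost peaks. Its listed peaks of P vs. D spanned 33 numbers, of which 5 were lost and 4 were gained, and 24 were in neither list. Of the 5 lost peaks, 4 had scores from 2.73 to 4.99, and the last one, from 77813 to 78734, had a score of 174. The gained peaks lay between 154 and 43701, with scores of 2.06 to 112. Without contigs 477 and 478, lost peaks were 82.2% of the listed peaks above contig 100, and 227 remained.

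Light-exposed mycelium was compared with the same dark libraries, so the lists of L vs. D and P vs. D are not independent. In L vs. D, 2.14% of the 12778 peak numbers up to the highest listed were lost and 1.83% were gained. A lost peak of L vs. D overlapped 15 of the 232 lost peaks of P vs. D by at least 1 bp, or 6.47% of these and 83.3% of the 18 lost peaks of L vs. D on contigs above 100. On contigs 100 or below, 133 peaks of each list overlapped, or 7.92% of such peaks in P vs. D and 52.2% of the 255 in L vs. D. No gained peak of L vs. D overlapped any of the 232 peaks (0 of 8 gained peaks on these contigs). These overlaps are given as a description, because a high value in the shared dark libraries enters both lists.

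The 15 peaks lay on 12 contigs and had scores of 2.17 to 755 in P vs. D, with a median of 85.0. In 10 of them the start, end and score were identical in both lists, and in 2 more the score and either the start or the end were. On contig 355 the score was 755 in P vs. D (98 to 2635) and 755 in L vs. D (68 to 2635). On contig 405 it was 539 in both comparisons, and on contig 102, from 25187 to 27028, it was 413 in both. Contigs 388, 117 and 457 followed with 347, 262 and 237 in both comparisons. On contig 146, from 17725 to 19230, it was 180 in both, on contig 341 it was 85.0 and on contig 385 it was 64.5. The other 3 shared scores were 36.4, 5.35 and 2.17. All 12 were thus the same in both comparisons and give no size of a difference.
For 3 peaks it did differ. It was 48.1 in P vs. D and 52.1 in L vs. D on contig 133, 15.0 and 17.6 on contig 102 from 21993 to 22360, and 8.39 and 11.8 on contig 294.

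Contig 102 held 3 of these 15 peaks among its 5 lost peaks of P vs. D, which lay between 21993 and 28955 and took all 5 numbers of that stretch. Contig 146 carried changes in both directions in both comparisons. Besides the lost peak from 17725 to 19230, it held a gained peak from 7767 to 9175 in P vs. D (score 21.7) and one from 7891 to 9169 in L vs. D (score 11.2). The study assigns the gained peak of L vs. D to a gene described as the iron-sulfur clusters transporter ATM1, which in yeast exports a product of iron-sulfur cluster assembly from mitochondria. The study also links other lost peaks of P vs. D to genes, but lists peaks only for genes changed in both comparisons. None of these 38 listed peaks was among the 232 lost peaks (0 peaks). The 232 are few of the 4187 peaks in the 4 lists, so this count is no trait of these regions. The gene tables give no positions, so no RNA level can be set beside these regions.

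The lost peaks on small contigs stood near the top of the deposited list, whose order is not explained in the sources used here. They took 8 of the first 10 places, 15 of the first 20, 56 of the first 100 (56.0%) and 146 of the first 500 (29.2%), against 12.1% of the whole list. Their median place was 319.5, against 1037.5 for the lost peaks on contigs 100 or below. The first places belonged to contig 234 from 2761 to 6954 (4194 bp, score 328), contig 239 from 136 to 6537 (6402 bp, score 34.9) and contig 128 from 2193 to 11099 (8907 bp, score 65.8). Wide peaks came early, with a Spearman rho of -0.83 between width and place across the 232 peaks and of -0.64 on contigs 100 or below. The corresponding rho for score and place was -0.59 and -0.58. Whether the early places follow from the width of these peaks was not tested.

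**Figure D5:**
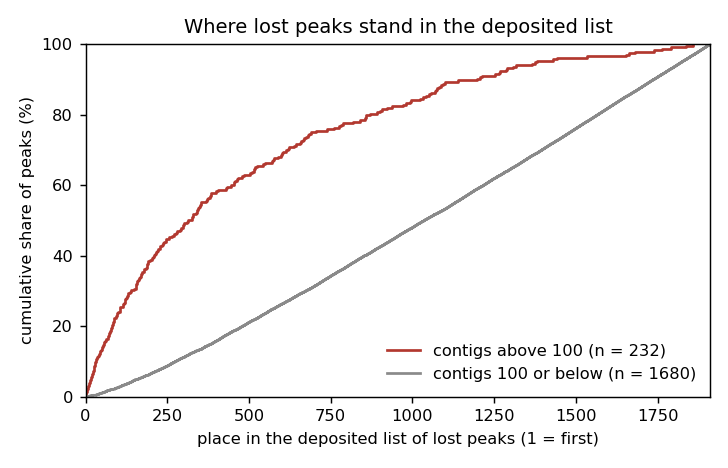
Cumulative share (y axis, %) of the lost peaks of P vs. D on contigs above 100 (red, 232 peaks) and on contigs 100 or below (grey, 1680 peaks) against the place in the deposited list (x axis, first place at the left). The red line rises early, with a median place of 319.5 against 1037.5.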

How the data were processed

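ATAC-seq was performed by the authors on 2 libraries each of primordia, light-induced mycelium and dark mycelium. Per the methods, reads were trimmed with cutadapt, mapped to the SP-C contigs with BWA 0.7.10 and merged per group with BEDTools. Peaks were called with MACS2 2.1.1, with a low threshold on fold change and a threshold on p that is not described as adjusted. A lost peak is thus a peak called lower in P than in D, and need not be absent from primordia. No shift of read ends and no treatment of duplicates or of reads with several matches is named, which can bear on peaks in repeats. The score of each peak was deposited by the authors with no unit stated. Starts in the lists count from 0, and 1 was added.

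Members and lists were chosen with earlier results of these data known. Regions were named by a rule on score, width, peaks per contig and overlap. Peaks were counted with Python 3.11.15, pandas 2.3.3, numpy 2.4.6 and scipy 1.17.1, overlapped with bedtools 2.31.1 by at least 1 bp and drawn with matplotlib 3.10.9. The counting and overlap steps were tested on simulated lists. Alternatives were a score of at least 5, contigs above 50 or 200, merging within 1 kb and a reciprocal overlap of 50%. The RNA-seq tables were not used, because none of these peaks is among those the study lists with a gene, and the planned RNA test was not run. They hold counts beside fold changes and p-values of the authors.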

Additional observations from a re-analysis of the deposited data

How the results depend on the processing

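No paired analysis was possible because the peak lists hold no value per library, and for the same reason no replicate could be left out. A value with no test was taken as moved when it left the 95% interval of the reported value, and a count when it changed by over 1.5 times. The lost share of listed peaks above contig 100 was 80.8%, 79.9% at a score of at least 5, and 83.4% on contigs above 200. With contigs above 50 it moved to 59.2%, which adds contigs where lost and gained peaks are about equal in number. With that bound there were 529 lost peaks (27.7% of the list) that covered 604741 bp, with a median width of 657 bp, a median score of 13.5 and 15.3% within 500 bp of a contig start. Above contig 200 there were 126 lost peaks (6.59%) that covered 220418 bp, with a median score of 39.1 and 54.8% near a start. At a score of at least 5 the small contigs held 22.6% of the lost peaks, with a median width of 1226 bp, a median score of 39.7 and 41.4% near a start. Merging peaks within 1 kb left 184 regions with a median width of 1356 bp. The overlap with L vs. D was 5.56% to 9.45% over the alternatives. Leaving out contigs 477 and 478, chosen after seeing the data, moved none of the 9 results beyond these limits. The alternatives for RNA were not run.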

Other observations

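The 55 gained peaks of P vs. D lay on 42 contigs and covered 59337 bp. Their scores ran from 2.06 to 2265, and the 2 highest, 2265 (contig 464, 10 to 932) and 2152 (contig 468, 13 to 1046), exceeded the highest score of the 232 lost peaks there, which was 770. The quartiles of the score were 8.98 and 80.4 for the lost peaks and 9.13 and 58.2 for the gained peaks. On contig 478 both listed peaks were gained, from 26367 to 27136 and from 29064 to 33860. The 3 lost peaks of L vs. D on small contigs that met no lost peak of P vs. D were 165 to 319 bp wide and lay on contigs 120, 198 and 294. On contig 120, a gained peak of P vs. D from 14604 to 14962 (score 158) covers the same start as the lost peak of L vs. D from 14604 to 14922 (score 65.8). Both comparisons share the dark libraries, and whether the difference in direction holds between replicates was not tested.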
